A study of Homo sapiens with 8 samples.

Results

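ABL1 and ABL2 are the 2 members of the ABL family of non-receptor tyrosine kinases. They share the kinase, SH3 and SH2 domains and differ most in the long C-terminal region that binds actin and other partners. Both pass signals from growth factor receptors and integrins to the actin cytoskeleton, and ABL1 also shuttles to the nucleus. In breast cancer cells both have been tied to invasion, and a loss of one is often buffered by the other. A direct comparison of cells that have lost one paralog with cells that have lost the other shows which mRNAs differ between the 2 knockdowns. It does not need a control sample, and it cannot say which of the 2 knockdowns moved a gene.

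The comparison was made between 2 of the 8 samples of the series, chosen by their labels alone: the single sample with a short hairpin RNA (shRNA) against ABL1 and the single sample with an shRNA against ABL2. All 8 samples were LM2 cells, a human breast cancer line derived from MDA-MB-231 by selection for lung metastasis. The other samples carried both shRNAs (1 sample), a scrambled shRNA (1 sample), DMSO (2 samples) or 1 µM Ponatinib, an inhibitor of ABL and other tyrosine kinases, for 6 h (2 samples). The hairpins were delivered by lentivirus and the cells selected with puromycin, so each knockdown is a mixed population of transduced cells and not a clone. Each paralog was targeted in a single knockdown sample by hairpin RNA, with no second, independent sample of that knockdown. Effects of the hairpin other than on its target and effects of losing the target therefore cannot be told apart.

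The counts on genes summed to 13010896 with ABL1 shRNA and 12456859 with ABL2 shRNA, within a range of 7568934 to 13010896 over the series. Levels are given as CPM, the count scaled to a total of 1000000. A single count equals 0.0769 CPM in the first and 0.0803 CPM in the second. Reads outside annotated genes made up 9.54% and 9.90% of the counted reads and mitochondrially encoded genes 3.99% and 4.17% of the counts on genes. The heading inside the ABL1 shRNA file names the control and that inside the scrambled shRNA file names ABL1 shRNA, and the samples were used as GEO labels them. Each knockdown is 1 sample, so a test between them has to take its spread from the DMSO and Ponatinib pairs. Such fits were run as alternatives, over other sets of genes than the one compared here (18275 in edgeR with its quasi-likelihood test and 10402 in DESeq2). Here each ratio is given with a 95% exact binomial (Clopper-Pearson) interval, which covers counting error and leaves out any spread between cultures. The DMSO and Ponatinib pairs show how far 2 samples of 1 group lay apart, although nothing in the labels says that they came from separate cultures.

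Each kinase was lowest in its own knockdown sample, out of all 8 samples. ABL1, on GRCh38 chromosome 9 from 130713043 to 130887675, had 944 counts with ABL1 shRNA, 2550 with ABL2 shRNA and 1329 under both shRNAs. These equal 72.6, 205 and 111 CPM, against 186 CPM with the scrambled shRNA and 160 to 197 CPM in the DMSO and Ponatinib samples. The sample labelled ABL1 shRNA thus held the lowest ABL1 level of the 8, which goes with its label and not with the heading inside its file. ABL2, on chromosome 1 from 179099330 to 179229684, had 2757 counts with ABL1 shRNA, 1177 with ABL2 shRNA and 1795 under both, which equal 212, 94.5 and 149 CPM. Its level was 231 CPM with the scrambled shRNA, 329 and 301 CPM with DMSO and 149 and 172 CPM with Ponatinib.

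Between the single knockdowns, ABL1 was 64.6% lower with ABL1 shRNA (log2 ratio of ABL1 shRNA over ABL2 shRNA -1.50, interval -1.61 to -1.39) and ABL2 was 55.4% lower with ABL2 shRNA (log2 ratio 1.17, interval 1.07 to 1.26). Neither knockdown was complete. In the sample with both shRNAs each target lay above its level in the matching single knockdown, with intervals that did not overlap (ABL1 105 to 117 against 68.0 to 77.3 CPM, ABL2 143 to 156 against 89.2 to 100.04 CPM).

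**Figure D1:**
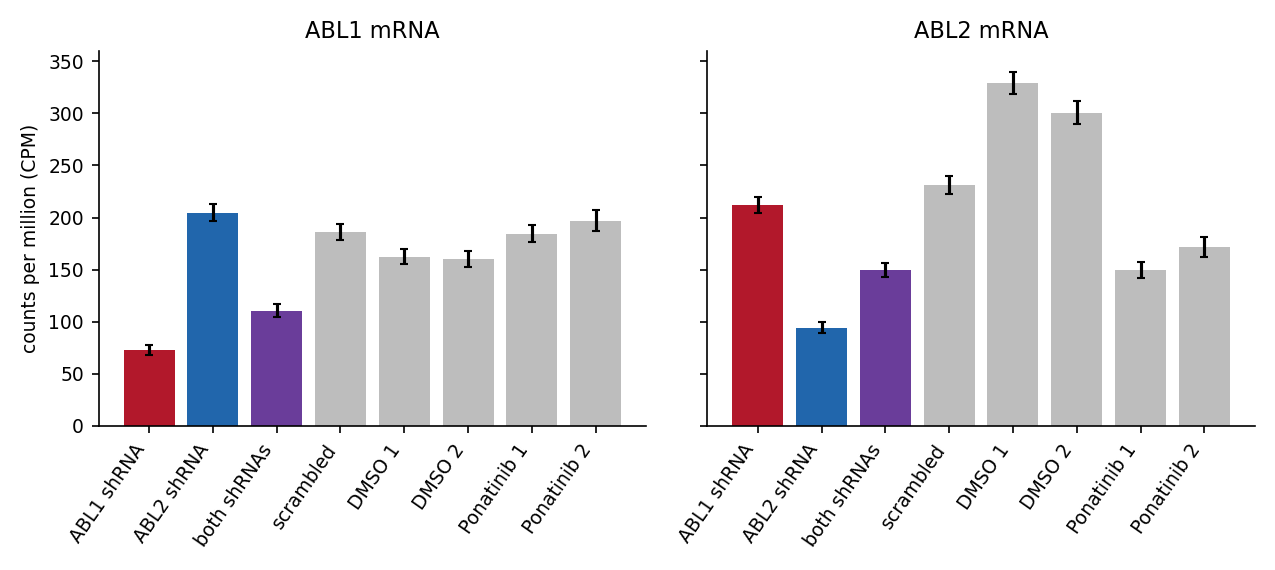
ABL1 (left) and ABL2 (right) mRNA in CPM in each of the 8 samples, as bars from 0 with 95% exact counting intervals. ABL1 was lowest with ABL1 shRNA (72.6 CPM) and ABL2 lowest with ABL2 shRNA (94.5 CPM), and with both shRNAs the 2 targets stood at 111 and 149 CPM.

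Genes were compared where at least 1 of the 2 samples held 50 counts or more, which left 12363. Of these, 454 differed by more than 2-fold (3.67%). 179 (1.45%) were higher with ABL1 shRNA and 275 (2.22%) were higher with ABL2 shRNA. The whole counting interval lay past 2-fold for 147 of them, 73 higher with ABL1 shRNA and 74 higher with ABL2 shRNA. Past 4-fold the balance turned, with 17 genes higher with ABL1 shRNA and 7 higher with ABL2 shRNA. Of the genes higher with ABL1 shRNA and higher with ABL2 shRNA, 160 and 247 were protein-coding and 11 and 24 were long non-coding RNAs. The shares of these gene types over all 12363 genes are not given here, so the counts describe no trait of the separated genes.

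The same threshold gave far fewer genes in replicate pairs, with 4 of 12311 genes (0.0325%) between the DMSO samples and 31 of 12168 (0.255%) between the Ponatinib samples. These pairs are from the Ponatinib treatment and its DMSO control, in cells whose labels name no shRNA. They do not measure the spread between 2 cultures of transduced and selected cells. The median absolute log2 difference was 0.24 between the 2 knockdowns, 0.08 in the DMSO pair and 0.12 in the Ponatinib pair. The median log2 ratio over the 12363 genes was -0.013, so the 2 samples were centred on each other. The threshold had no gap beside it: 108 genes lay between 2.0-fold and 2.1-fold and 135 between 1.9-fold and 2.0-fold. Likewise 163 genes had a higher count of 50 to 54 and 209 of 45 to 49.

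**Figure D2:**
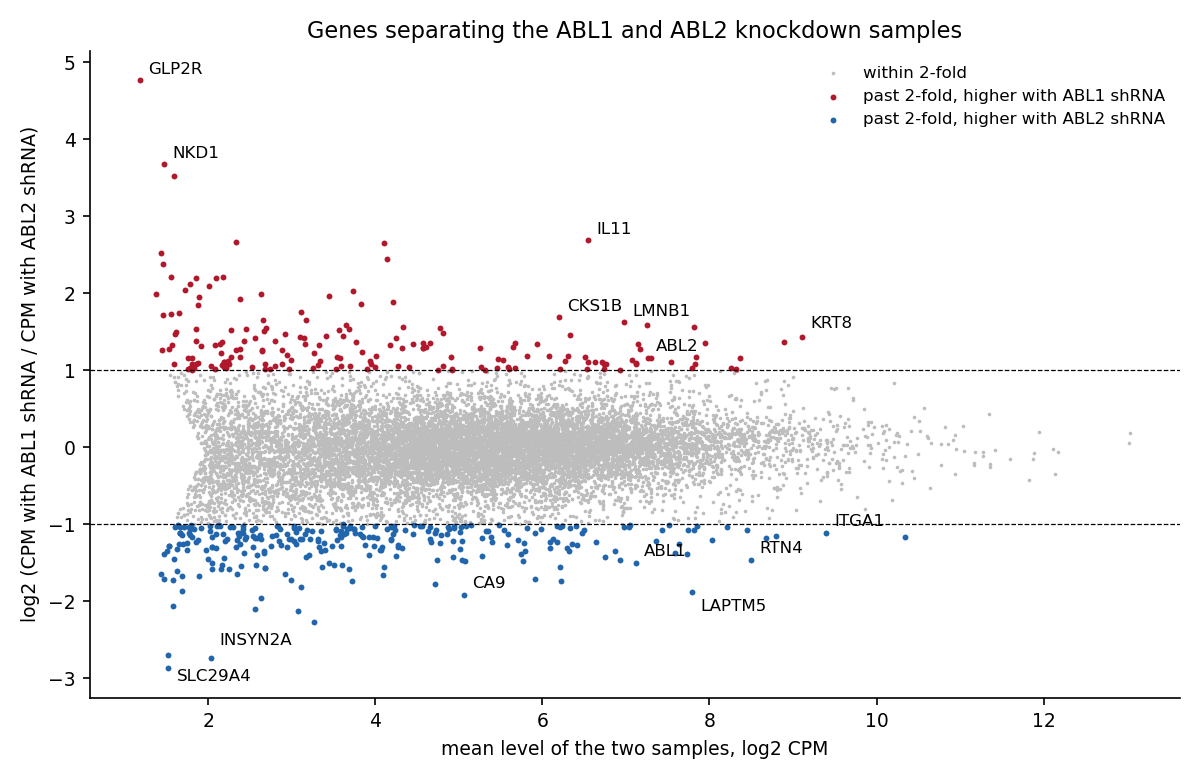
Log2 ratio of CPM with ABL1 shRNA over CPM with ABL2 shRNA (vertical) against the log2 of the mean CPM of both samples (horizontal) for 12363 genes, with dashed lines at 2-fold. The 179 genes in red lie above the upper line and the 275 in blue below the lower one, and labelled genes include IL11, KRT8 and LMNB1 above and LAPTM5 and RTN4 below.

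The genes that stood farthest apart with ABL1 shRNA on the high side were GLP2R, by the nearer bound of its interval, and then IL11. IL11, a cytokine of the interleukin 6 family that signals through gp130 (chromosome 19 from 55364382 to 55370463), had 2105 counts with ABL1 shRNA, 312 with ABL2 shRNA and 1679 under both. The ABL1 shRNA sample and the sample with both shRNAs were high (162 and 140 CPM), and the ABL2 shRNA sample was low (25.05 CPM). The ratio was 6.46-fold (log2 2.69, interval 2.52 to 2.87). GLP2R, a receptor for a gut peptide hormone, had 57 counts against 2 and 28 with both, a ratio of 27.3-fold whose log2 interval ran from 2.85 to 7.85 because of the low count.

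The next genes encode a channel, a mucin and proteins of the cytoskeleton and of vesicles. AQP3, a water and glycerol channel, had 387 counts with ABL1 shRNA, 68 with ABL2 shRNA and 312 under both (log2 ratio 2.45, interval 2.07 to 2.84). MUC2, a gel-forming mucin, had 113, 17 and 85 counts in the same order (log2 ratio 2.67, interval 1.93 to 3.499). MISP, an actin-bundling protein that helps to place the mitotic spindle, had 380, 98 and 261 counts (log2 ratio 1.89, interval 1.57 to 2.23). EXPH5, a RAB27 effector in vesicle traffic, had 289, 76 and 178. In each of these 4 genes the sample with both shRNAs lay between the single knockdowns.

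The signalling and transcription genes on this side were ARNT2, NKD1 and RHOV. ARNT2, a partner of bHLH-PAS transcription factors, had 387 counts with ABL1 shRNA, 59 with ABL2 shRNA and 169 under both (log2 ratio 2.65, interval 2.25 to 3.07). NKD1, an inhibitor of Wnt signalling, had 67, 5 and 22 counts (log2 ratio 3.68, interval 2.39 to 5.35), and RHOV, a small GTPase, had 97, 20 and 51. ARNT2 and NKD1 share their ground with genes on the opposite strand, and whether the counting used strand is not stated in the sources used here.

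LMNB1 and CKS1B, like IL11, had over 1000 counts with ABL1 shRNA. LMNB1, the B-type lamin of the nuclear envelope, had 2473 counts with ABL1 shRNA, 766 with ABL2 shRNA and 1823 under both (log2 ratio 1.63, interval 1.51 to 1.75). CKS1B, a small subunit of cyclin-dependent kinases that also serves the ubiquitin ligase SCF-SKP2, had 1460, 433 and 911 counts (log2 ratio 1.69, interval 1.54 to 1.85). Reads could be split between CKS1B and its processed pseudogenes, of which CKS1BP3 had 125, 38 and 96 counts. The remaining genes named by the rule were CYP2S1 (72, 6 and 43 counts), F13A1 (277, 65 and 228), SAA2 (60, 10 and 25) and the long non-coding RNA LINC03033 (225, 55 and 134). SAA2 has near-identical paralogs and overlaps a read-through gene, so its counts are uncertain.

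On the side that was higher with ABL2 shRNA, RTN4 and LAPTM5 had the most counts of the named genes. LAPTM5, a lysosomal membrane protein best known from blood cells (chromosome 1 from 30732469 to 30757774), had 1232 counts with ABL1 shRNA, 4325 with ABL2 shRNA and 1917 under both, or 94.7, 347 and 160 CPM. Its ratio was 3.67-fold toward ABL2 shRNA (log2 -1.87, interval -1.97 to -1.78). The pan-leukocyte marker PTPRC had 3 counts with ABL1 shRNA and 0 with ABL2 shRNA. RTN4, the reticulon that shapes tubular endoplasmic reticulum and is also known as Nogo, had 2518, 6624 and 3098 counts (log2 ratio -1.46, interval -1.53 to -1.39). SLC44A2, a choline transporter-like protein, had 448, 1431 and 764 counts (log2 ratio -1.74, interval -1.90 to -1.58).

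Further genes on this side act on peptides, lipids and the matrix. ERAP1, the aminopeptidase that trims peptides for MHC class I, had 492 counts with ABL1 shRNA, 1381 with ABL2 shRNA and 549 under both (log2 ratio -1.55, interval -1.70 to -1.40). GALC, the lysosomal galactosylceramidase, had 155, 506 and 160 (log2 ratio -1.77, interval -2.04 to -1.51). OLFML2A, a secreted olfactomedin-domain protein, had 367, 1153 and 506, and ADAMTS14, a procollagen-processing protease, had 41, 171 and 58. In ERAP1 and GALC the sample with both shRNAs stood close to the ABL1 shRNA sample. ERAP1 overlaps CAST on the opposite strand, and reads of the pair cannot be told apart without strand.

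The rule also named genes with few counts on this side. INSYN2A had 14, 89 and 32 counts, SLC29A4 had 9, 63 and 22, TMEM117 had 10, 62 and 28, RIMS3 had 29, 119 and 53 and GPR137C had 33, 123 and 52, in the order ABL1 shRNA, ABL2 shRNA and both. In these 5 genes the ABL2 shRNA sample was the high one of the 3. INSYN2A, SLC29A4, TMEM117 and RIMS3 overlap annotated genes on the opposite strand, as LAPTM5 and GALC do. GALC also overlaps a gene on its own strand. Without strand, reads of such pairs cannot be told apart. A further feature, ENSG00000243444.4, had 43, 199 and 68 counts, and its identifier matched no symbol. ABL1 itself was the last of the 15 genes on this side.

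Gene lists for pathways and cell types showed where the difference between the knockdowns was shared by many genes. Of 682 genes on the lists that were compared, 37 lay past 2-fold (5.43%), 16 higher with ABL1 shRNA and 21 higher with ABL2 shRNA, beside 3.67% over all genes. The lists were chosen with earlier results of these data known, and the 37 include ABL1 and ABL2 themselves. A larger share on the lists is therefore no result. Over all 12363 genes, 5989 were higher with ABL1 shRNA and 6374 higher with ABL2 shRNA, against which the counts of each list can be read.

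The mitosis list lay wholly on one side. All 34 genes listed for mitosis and the spindle were higher with ABL1 shRNA than with ABL2 shRNA, 33 of them with an interval wholly above 1, and the median log2 ratio was 0.67, or 1.59-fold. Only CCNB1, cyclin B1, crossed 2-fold, with 5560 counts with ABL1 shRNA, 2616 with ABL2 shRNA and 4764 under both (log2 ratio 1.02, interval 0.96 to 1.09). UBE2C, the E2 enzyme of the anaphase-promoting complex, had 2730, 1310 and 2268 counts (log2 ratio 1.00), and TTK, a spindle checkpoint kinase, had 1334, 641 and 1080 (log2 ratio 0.99). CDC20, the activator of the anaphase-promoting complex, had 2237, 1117 and 2244 (log2 ratio 0.94), and CDK1, the kinase partner of cyclin B1, had 3307, 1745 and 2400 (log2 ratio 0.86). The smallest ratios were those of KIF23 (0.11), DLGAP5 (0.20) and MKI67 (0.24). In the sample with both shRNAs the median of the list was -0.01 against ABL1 shRNA and 0.66 against ABL2 shRNA, so the 2 samples that carried ABL1 shRNA had like levels.

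The DNA replication list showed far less, with 22 of 36 genes higher with ABL1 shRNA and a median log2 ratio of 0.15. GINS2, a subunit of the replicative helicase, was past 2-fold with 202 counts against 71 (log2 ratio 1.45, interval 1.05 to 1.86), while E2F1 and MCM6 had log2 ratios of -0.996 and -0.97. The S phase and the mitotic lists therefore did not shift alike. The share of cells in each phase was not measured, and in bulk RNA more cells in a phase and more mRNA per cell cannot be told apart.

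Promoters of mitotic genes are known for a CHR element and for CCAAT boxes bound by NF-Y. In the 250 bases before the start of each gene in RefSeq (GRCh38.p14), TTTGAA, a core form of the CHR element, was searched on both strands. It was present in 18 of 35 windows (51.4%) of the mitosis genes, in 9.05% of the 14015 windows of the compared genes and in 13.3% of all 35116 windows. CCAAT, searched on both strands, was present in 29 of the 35 windows (82.9%), in 33.2% of the windows of the compared genes and in 32.0% of all windows. Among genes past 2-fold, TTTGAA was present in 13.6% of the windows of those higher with ABL1 shRNA and in 5.33% of those higher with ABL2 shRNA. For CCAAT these shares were 39.7% and 32.3%. Windows were at hand for 29 of the 34 mitosis genes and not for AURKA, BIRC5, TPX2, TTK and UBE2C. The 4 windows below belong to the mitosis genes with 1 window that had the largest ratios, and show where these letters stand. Capitals mark TTTGAA and CCAAT or their reverse complements.
CCNB1, chr5:69166900-69167149, plus strand: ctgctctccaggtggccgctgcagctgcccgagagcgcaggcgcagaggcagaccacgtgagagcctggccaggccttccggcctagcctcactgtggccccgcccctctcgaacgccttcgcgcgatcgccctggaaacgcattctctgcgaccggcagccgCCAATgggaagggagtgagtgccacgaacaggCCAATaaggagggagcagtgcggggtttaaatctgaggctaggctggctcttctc
CDC20, chr1:43358731-43358980, plus strand: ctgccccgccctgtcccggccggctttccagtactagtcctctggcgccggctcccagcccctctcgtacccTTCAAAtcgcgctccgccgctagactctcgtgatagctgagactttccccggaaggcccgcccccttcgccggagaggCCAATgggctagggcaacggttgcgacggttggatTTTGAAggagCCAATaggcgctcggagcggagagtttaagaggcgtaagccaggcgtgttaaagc
ASPM, chr1:197146670-197146919, minus strand: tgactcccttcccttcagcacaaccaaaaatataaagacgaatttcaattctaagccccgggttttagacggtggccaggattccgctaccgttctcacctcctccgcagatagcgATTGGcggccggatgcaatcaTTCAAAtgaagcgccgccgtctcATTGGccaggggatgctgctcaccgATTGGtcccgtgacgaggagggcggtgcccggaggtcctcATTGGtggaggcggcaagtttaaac
KIF20A, chr5:138178862-138179111, plus strand: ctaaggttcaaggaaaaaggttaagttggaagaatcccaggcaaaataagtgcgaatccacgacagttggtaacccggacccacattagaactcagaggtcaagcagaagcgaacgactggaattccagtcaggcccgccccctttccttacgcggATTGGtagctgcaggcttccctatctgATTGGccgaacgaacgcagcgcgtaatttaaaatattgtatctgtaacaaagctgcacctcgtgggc
All 4 windows held CCAAT at 2 or more places. TTTGAA was found in CDC20 (2 matches) and ASPM (1 match) and not in CCNB1 or KIF20A. Other forms of the CHR element were not searched, so a window without TTTGAA is not shown to lack the element. A match of letters is a description of the window and no measurement of a bound factor.

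The epithelial and mesenchymal list held 3 genes past 2-fold, each a keratin of simple epithelia. KRT8, a type II keratin, had 10461 counts with ABL1 shRNA, 3700 with ABL2 shRNA and 7669 under both, or 804, 297 and 638 CPM (log2 ratio 1.44, interval 1.38 to 1.49). Its filament partner KRT18 had 4030, 1813 and 3307 counts (log2 ratio 1.09, interval 1.01 to 1.17), and KRT7 had 3859, 1806 and 3177 (log2 ratio 1.03, interval 0.95 to 1.11). In each of the 3 keratins both samples with ABL1 shRNA were high and the ABL2 shRNA sample was low. KRT8 and KRT18 have many processed pseudogenes, among which the counting could split reads.

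The other members of the list went both ways. KRT19, also a keratin of simple epithelia, had a log2 ratio of 0.74, while the tight junction genes CLDN7 and CLDN4 had -0.71 and -0.30. SNAI2, a repressor of epithelial genes, and VIM, the mesenchymal intermediate filament, had log2 ratios of 0.77 and 0.28, and ZEB1 and ZEB2, also repressors of epithelial genes, had -0.40 and -0.63. Of the 18 genes compared, 13 were higher with ABL1 shRNA.

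Ligands of the TGF-beta family separated the knockdowns in both directions. INHBA and INHBB, which encode the beta chains of activins, had 292 and 233 counts with ABL1 shRNA, 123 and 82 with ABL2 shRNA and 166 and 134 under both (log2 ratios 1.18 and 1.44). PMEPA1, a TGF-beta target that dampens the pathway, had 2839, 1217 and 2189 counts (log2 ratio 1.16, interval 1.06 to 1.26), and BMP4 had 2594, 1386 and 1938 (log2 ratio 0.84). GDF15, a stress-induced family member, was on the other side with 260, 516 and 279 counts (log2 ratio -1.05), and TGFB1 and LTBP1, the latent TGF-beta binding protein, had log2 ratios of -0.80 and -0.93. Of 22 genes compared, 16 were higher with ABL1 shRNA, with a median log2 ratio of 0.32, and 4 lay past 2-fold. The receptors were split as well, with log2 ratios of 0.63 for TGFBR1 and -0.47 for TGFBR2.

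Most integrins lay on the ABL2 shRNA side. ITGA1, the collagen-binding alpha 1 chain, had 5571 counts with ABL1 shRNA, 11481 with ABL2 shRNA and 5587 under both (log2 ratio -1.11, interval -1.15 to -1.06). ITGA10, another collagen-binding chain, had 653, 1504 and 850 (log2 ratio -1.27, interval -1.40 to -1.13). ITGA5 (-0.90), ITGA2 (-0.70) and ITGA3 (-0.52), which bind fibronectin, collagen and laminin, were within 2-fold. ITGB2, the beta chain of leukocyte integrins, was the exception past 2-fold, with 956, 356 and 573 counts (log2 ratio 1.36, interval 1.19 to 1.54), and the common beta chain ITGB1 had a log2 ratio of 0.14. Of 14 integrin genes compared, 9 were higher with ABL2 shRNA and the median log2 ratio was -0.43.

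Among matrix genes, the fibrillar collagens COL1A1 (1285 counts with ABL1 shRNA, 2851 with ABL2 shRNA, 1683 under both) and COL5A1 (2938, 5898 and 3607) were past 2-fold, with log2 ratios of -1.21 and -1.07. LOXL4, a collagen-crosslinking oxidase, went the other way with 470, 176 and 326 (log2 ratio 1.35, interval 1.10 to 1.61). The 30 matrix protein genes were split evenly, 15 each way, so the list as a whole did not lean.

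The matrix proteases leaned further, with 18 of 21 genes higher with ABL2 shRNA and a median log2 ratio of -0.22. ADAM9, a membrane-bound sheddase, was past 2-fold with 1801 counts with ABL1 shRNA, 3610 with ABL2 shRNA and 2111 under both (log2 ratio -1.07, interval -1.15 to -0.98). MMP14, the membrane-type protease of invadopodia, had 12538, 16252 and 11759 counts (log2 ratio -0.44), and MMP15 was the gene farthest to the other side (log2 ratio 0.98).

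Hypoxia-inducible and glycolytic genes were higher with ABL2 shRNA in 24 of 31 cases, 23 of them with an interval wholly below 1, and the median log2 ratio was -0.24. CA9, a carbonic anhydrase widely used as a hypoxia marker, had 182 counts with ABL1 shRNA, 656 with ABL2 shRNA and 291 under both (log2 ratio -1.91, interval -2.16 to -1.67). CA9 overlaps ARHGEF39 on the opposite strand, so its counts are uncertain without strand. CA12, a related carbonic anhydrase, had 1391, 3454 and 1652 (log2 ratio -1.37), and ALDOC, an aldolase, had 385, 963 and 455 (log2 ratio -1.39). The list was not uniform: other oxygen-regulated genes such as EGLN3 (0.91), SLC2A1 (0.36), ADM (0.28) and PDK1 (0.21) had log2 ratios on the ABL1 shRNA side, and VEGFA and LDHA stood at -0.23 and -0.21. Oxygen and cell density were not measured.

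The core of the hypoxia response element, ACGTG, searched on both strands, was present in 20 of 40 windows of 27 genes of that list, in 22.5% of the windows of the compared genes and in 18.5% of all windows. The window of CA9 is shown because it had the largest ratio of the list, with the match in capitals 18 bases before the start (position -18). AP-1 sites, TGANTCA, which reads the same on both strands, were present in 4.49% of the windows of the compared genes and in 6.57% of all windows. The IL11 window holds 1 match, which starts at position -96, and is shown because of the wide ratio of IL11 at high counts. The window of CA9, a gene higher with ABL2 shRNA, also holds TGAGTCA, left in lower case because only ACGTG is marked there.
CA9, chr9:35673678-35673927, plus strand: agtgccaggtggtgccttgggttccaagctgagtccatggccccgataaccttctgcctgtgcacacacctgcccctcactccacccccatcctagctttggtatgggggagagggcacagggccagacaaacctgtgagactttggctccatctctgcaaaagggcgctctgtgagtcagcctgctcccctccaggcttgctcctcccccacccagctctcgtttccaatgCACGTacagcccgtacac
IL11, chr19:55370464-55370713, minus strand: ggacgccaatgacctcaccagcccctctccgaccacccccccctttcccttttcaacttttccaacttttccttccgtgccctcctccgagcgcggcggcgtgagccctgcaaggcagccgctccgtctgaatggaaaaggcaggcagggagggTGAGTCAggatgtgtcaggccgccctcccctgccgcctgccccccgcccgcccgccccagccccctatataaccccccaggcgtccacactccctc
Among genes past 2-fold, TGANTCA was present in 7.04% of the windows of those higher with ABL1 shRNA and in 6.58% of those higher with ABL2 shRNA. ACGTG was present in 17.6% and 20.1% of these windows in the same order, both below the 22.5% of the compared genes. The share in the hypoxia list therefore describes that list and not the genes higher with ABL2 shRNA.

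**Figure D3:**
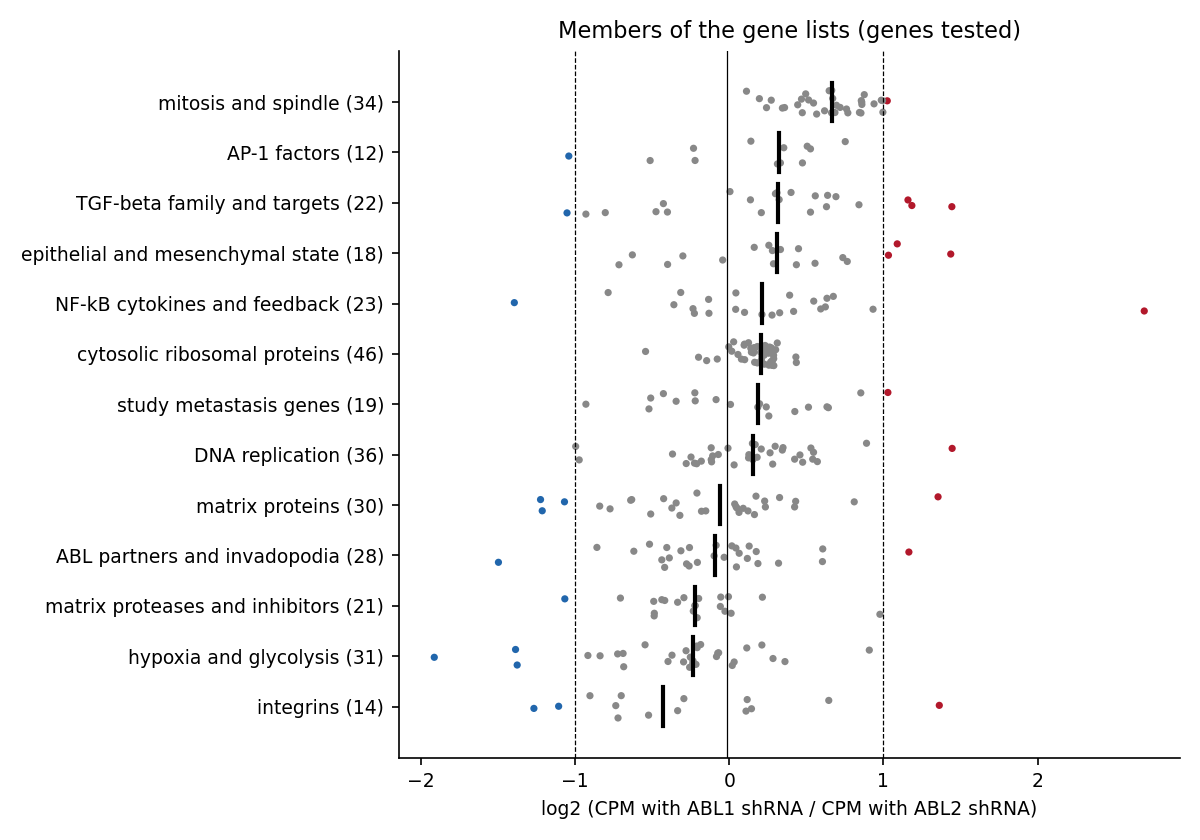
Log2 ratio of CPM with ABL1 shRNA over CPM with ABL2 shRNA for the compared members of 13 gene lists (number in brackets), 1 point per gene, with black bars at the list medians, dashed lines at 2-fold and a thin line at the median of all genes (-0.013). The mitosis genes all lie to the right of that line (median 0.67), while integrins (-0.43) and hypoxia and glycolysis genes (-0.24) lie mostly to its left.

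ABL partners and invadopodia genes went both ways between the knockdowns. Of the 28 genes compared, the 2 kinases themselves were past 2-fold, and a list of this size would hold about as few at the 3.67% found over all genes. The counting interval lay wholly above 1 for 5 of the 28 and wholly below 1 for 13. SH3PXD2A, the scaffold TKS5 of invadopodia, was farthest toward ABL2 shRNA with 2613 counts with ABL1 shRNA, 4534 with ABL2 shRNA and 3170 under both (log2 ratio -0.86, interval -0.93 to -0.79). CTTN, the actin-binding ABL substrate cortactin, had 3563, 4516 and 3644 counts (log2 ratio -0.40, interval -0.47 to -0.34). WASF2, a subunit of the WAVE complex, had 4050, 2550 and 3276 (log2 ratio 0.60, interval 0.53 to 0.68). The adaptors CRK, CRKL and NCK1 had log2 ratios of -0.28, -0.10 and 0.02, and the interactors ABI1 and ABI2 had 0.04 and -0.52.

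The metastasis genes followed in the study are few, so that at the 3.67% found over all genes a count of 0 past 2-fold, as here, says little about them. TNC, a matrix glycoprotein, had 1917 counts with ABL1 shRNA and 1947 with ABL2 shRNA (log2 ratio -0.09, interval -0.18 to 0.01). PTGS2, the inducible cyclooxygenase, had 882 and 1072 (log2 ratio -0.34), and MMP1, an interstitial collagenase, had 929 and 1038 (log2 ratio -0.22). ANGPTL4, a secreted inhibitor of lipoprotein lipase, had 417 and 338 (log2 ratio 0.24), LY6E, a GPI-anchored surface protein, had 1110 and 927 (log2 ratio 0.20), and RARRES3, listed as PLAAT4 and described as a metastasis suppressor, had 67 and 92 (log2 ratio -0.52, interval -0.997 to -0.05). JUN, the AP-1 subunit at the centre of the study, had 2452 and 2756 counts (log2 ratio -0.23, interval -0.31 to -0.15). For PTGS2 and MMP1 the sample with both shRNAs lay below both single knockdowns, with 637 and 732 counts. Of the 19 compared genes on the wider list of metastasis genes, EREG, the EGF receptor ligand epiregulin, was the 1 gene past 2-fold, with 5339, 2505 and 3437 counts (log2 ratio 1.03, interval 0.96 to 1.10).

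The sample with both shRNAs was set beside the single knockdowns for the 454 separated genes. It lay between them for 439 (96.7%). On the log2 scale it was nearer to ABL1 shRNA for 360 genes (79.3%) and nearer to ABL2 shRNA for 94. With the level in ABL2 shRNA set to 0 and that in ABL1 shRNA to 100%, its median position on the CPM scale was 68.3% (quartiles 52.8 and 79.2%). The genes were chosen for a wide gap between the single knockdowns, so any other sample tends to fall inside that gap. The scrambled sample did so for 303 of the 454 (66.7%), with a median position of 38.4% and quartiles of 5.83 and 72.0%.

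For the targets themselves the sample with both shRNAs stood at 71.2% of the way from ABL2 shRNA to ABL1 shRNA for ABL1 and at 46.8% for ABL2. Directly compared, the sample with both shRNAs differed past 2-fold from ABL1 shRNA in 26 of 12230 genes (0.213%) and from ABL2 shRNA in 142 of 12287 (1.16%). Both comparisons share the sample with both shRNAs. Over all 12363 genes it lay more than 1.5-fold above both single knockdowns for 1 gene and below both for 22, whereas the scrambled sample did so for 208 and 480.

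**Figure D4:**
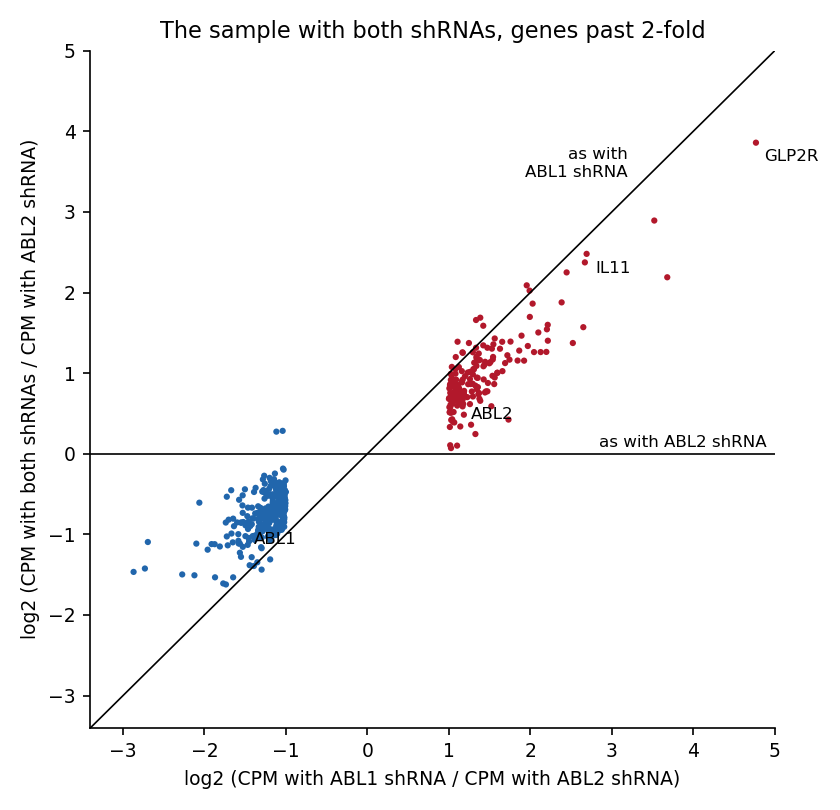
Log2 ratio of CPM with both shRNAs over ABL2 shRNA (vertical) against that of ABL1 shRNA over ABL2 shRNA (horizontal) for the 454 genes past 2-fold, with the diagonal where both shRNAs equal ABL1 shRNA and the horizontal line where they equal ABL2 shRNA. Of the points, 439 lie between these lines and 360 lie nearer to the diagonal.

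The level in the sample with both shRNAs was close to a weighted mean of the 2 single knockdowns over most genes. This description was chosen after the values were seen. With the targets left out, the weights that came closest over 11683 genes with 50 counts in all 3 samples were 0.70 for ABL1 shRNA and 0.30 for ABL2 shRNA. The sample with both shRNAs was more than 1.5-fold from that mean for 34 genes (0.291%), against 168 genes from ABL1 shRNA alone, 692 from ABL2 shRNA alone, 29 of 11814 in the DMSO pair and 102 of 11339 in the Ponatinib pair. The weights were fitted to the sample with both shRNAs over these same genes, so a smaller number than from either single knockdown is built in. The pairs involve no fit and no averaging, so their numbers are not like for like. Fitted apart in genes of low, middle and high level and in genes on each side of the comparison, the weight of ABL1 shRNA ran from 0.65 to 0.73. ABL1 lay within 1.01-fold of the mean (111 against 112 CPM) and ABL2 was 1.18-fold below it (149 against 177 CPM). How the cells of that sample were infected and pooled was not tested.

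Several inflammatory cytokines stood away from that mean. Of the 34 genes past 1.5-fold from it, 24 were lower and 10 higher with both shRNAs. CXCL8, a neutrophil chemokine, had 1728 counts with ABL1 shRNA, 1428 with ABL2 shRNA and 906 under both, or 133, 115 and 75.4 CPM (log2 ratio to the mean -0.76). CXCL1, a related chemokine, had 1629, 1005 and 814 counts, CSF2, the growth factor GM-CSF, had 477, 286 and 236, and IL6 had 459, 329 and 243. CXCL3 had 94, 84 and 53. In these 5 genes the sample with both shRNAs was the lowest of the 3.

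On the whole list of NF-kB cytokines and feedback genes, the sample with both shRNAs lay below both single knockdowns in 16 of 23 genes (69.6%) and above both in 0, against 21.5% below both and 24.5% above both over all compared genes. The median log2 distance to the lower of the single knockdowns was -0.08 over the list. Of the other lists, mitochondrially encoded genes showed the same placing, with 11 of 15 below both (73.3%) at a median distance of -0.06. The feedback inhibitors NFKBIA (2465, 1881 and 1806 counts) and TNFAIP3 (447, 353 and 274) were among the 16. The placing is by sign alone, whatever the distance. NFKBIA, at 150 CPM with both shRNAs against 151 CPM with ABL2 shRNA, was hardly below it. SOD2, also on the list, matched no symbol and was left out. IL11 and BIRC3 were not, with the sample with both shRNAs between the single knockdowns. Between the single knockdowns 15 of the 23 were higher with ABL1 shRNA, with a median log2 ratio of 0.21, and past 2-fold were IL11 and, toward ABL2 shRNA, IL1A (66, 166 and 61 counts).

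**Figure D5:**
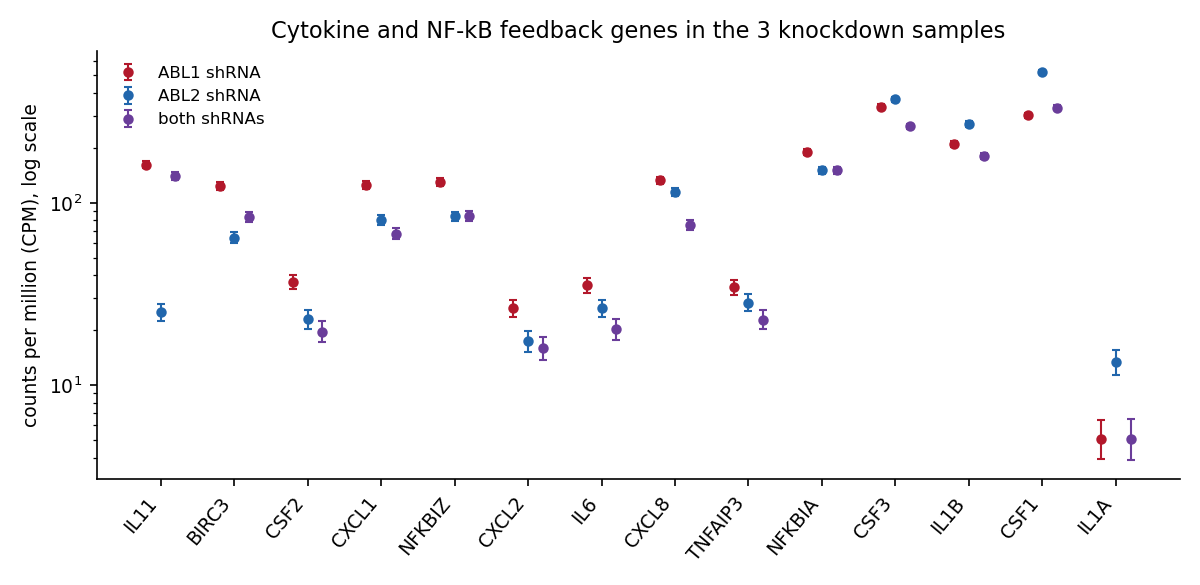
CPM on a log scale of 14 cytokine and NF-kB feedback genes in the samples with ABL1 shRNA (red), ABL2 shRNA (blue) and both shRNAs (purple), with 95% counting intervals. IL11 is high in both samples with ABL1 shRNA (162 and 140 CPM) and low with ABL2 shRNA (25.05 CPM), while CXCL8, CXCL1, CSF2 and IL6 are lowest with both shRNAs.

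Markers of other cell types were looked for in the 2 samples. Of 10 immune markers, CD3D, CD3E, MS4A1 and FCGR3A had no count in either sample, with PTPRC as given above. The 2 that were compared were CD14, with 86 and 71 counts, and CSF1R, which had 18 counts with ABL1 shRNA, 57 with ABL2 shRNA and 38 under both. Of 8 fibroblast markers 2 were compared, with a summed level of 107 CPM with ABL1 shRNA and 239 CPM with ABL2 shRNA, most of it COL1A1. Of 9 markers of the cell line in which lentivirus is packaged, NEFL, NEFM, PAX2, LHX1 and LIN28B had no count in either sample, while TUBB2B had 387 counts with ABL1 shRNA and 298 with ABL2 shRNA and NES had 619 and 1201. Their part in the differences above was not tested. The 10 marker genes of MDA-MB-231 were all expressed, with a summed level of 6807 CPM with ABL1 shRNA and 5346 CPM with ABL2 shRNA. These sums include KRT8 and KRT18, both past 2-fold as given above, and AXL (612 against 336 CPM). Of the 10 markers, 8 were higher with ABL1 shRNA and 2 higher with ABL2 shRNA.

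Base composition and length of genes moved little with the ratio. Across 12252 genes, which are not independent, Spearman's rank correlation of the log2 ratio was -0.10 with GC content and -0.06 with length. It was 0.09 with the mean level across all 12363 genes.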

How the data were processed

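RNA of LM2 cells had been sequenced from libraries of the NEBNext Ultra kit on an Illumina HiSeq. The authors aligned the reads to hg38 with TopHat and counted them per gene with HTSeq 0.6.0, and deposited raw counts without normalization. Strand and other counting settings are not given in the sources used here. Rows of the counter that name no gene were left out of the totals. Of 58688 gene identifiers, 40887 matched a symbol in GENCODE v44 (12068 of the 12363 compared), and positions are from that annotation on GRCh38.

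Counts were divided by their sum to give CPM, and genes with at least 50 counts in 1 of the 2 samples were compared. A gene was called separated past 2-fold. Ratios carry 95% exact binomial intervals, which cover counting error only. The genes named were ABL1 and ABL2, the 15 in each direction whose interval's nearer bound lay farthest from 1, the metastasis genes and JUN, and members of 38 lists past 2-fold or farthest in a list described. KRT8, KRT18 and similar genes were named as list members. Members and lists were chosen with earlier results of these data known. Genes away from the weighted mean were named after their values were seen.

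Alternatives were TMM and DESeq2 size factors, other count minimums and folds, protein-coding genes only, totals without mitochondrial genes, subtraction of a GC and length fit, and fits of all 8 samples in edgeR 4.0.16 (quasi-likelihood test) and DESeq2 1.42.0 under R 4.3.3, which take the spread from the pairs with DMSO or Ponatinib and call genes past 2-fold at an adjusted p under 0.05. The fits were tested on simulated data. Python 3.11.15 with numpy 2.4.6, pandas 2.3.3, scipy 1.17.1 and matplotlib 3.10.9 was used otherwise. Promoter windows are from RefSeq (GRCh38.p14). Some list members are not reported here.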

Additional observations from a re-analysis of the deposited data

How the results depend on the processing

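The 454 separated genes became 453 under TMM and 453 under DESeq2 size factors, 407 among protein-coding genes and 442 after subtraction of the GC and length fit. They numbered 1270 at a minimum of 10 counts in one sample, 232 at 200 counts, 291 at 50 counts in both samples, 3274 with any gene counted in both, 147 with the whole counting interval past 2-fold and 61 past 3-fold, where 35 were higher with ABL1 shRNA and 26 higher with ABL2 shRNA. The edgeR fit of all 8 samples called 585 genes and the DESeq2 fit 195, and leaving out a DMSO or Ponatinib sample moved the edgeR count to between 585 and 729. The higher counts came without Ponatinib replicate 1 (729) and without Ponatinib replicate 2 (723). In the replicate pairs a minimum of 200 counts left 0 genes for DMSO and 6 for Ponatinib. The sample with both shRNAs lay between the single knockdowns for 82.2% of separated genes at 10 counts, 99.6% at 200 counts and 99.0% at 50 counts in both, and nearer to ABL1 shRNA for 65.7%, 86.2% and 84.5%. Of the genes close to one single knockdown (within 25% of the log2 distance), 91.0% were near ABL1 shRNA. Away from the weighted mean, an alternative added after seeing the data, were 448 genes at a minimum of 10 counts in all 3 samples and 9 at 200, and its weight stayed at 0.70 in the 4 settings tried. The medians of the 38 lists moved by less than the typical counting error of a single member gene in 181 of 189 values. The TMM and DESeq2 values among the 189 shift every median by the same small amount, so they test little. The ratios of named genes were tried only under TMM and DESeq2 size factors, each of which shifts every ratio by the same small amount. They stayed inside their intervals in 76 of 76, which so small a shift fixed in advance. No paired analysis was possible because each knockdown is 1 sample without a replicate number.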

Other observations

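Of 46 cytosolic ribosomal protein genes, 41 were higher with ABL1 shRNA than with ABL2 shRNA (39 with an interval above 1), with a median log2 ratio of 0.21 and none past 2-fold. RPSA and RPL30 had log2 ratios of 0.44 and 0.43 and RPS4X, on the X chromosome, had -0.54. Ribosomal protein genes are short and have many processed pseudogenes, so their counts are uncertain. Of 28 genes of the lysosome and autophagy list, 20 were higher with ABL2 shRNA. LAMP1, the main lysosomal membrane glycoprotein, was past 2-fold with 1891 counts with ABL1 shRNA, 3820 with ABL2 shRNA and 2283 under both (log2 ratio -1.08, interval -1.16 to -0.997). TAPBP, which loads peptides onto MHC class I, had 1520, 3484 and 1987 counts (log2 ratio -1.26) while the antigen presentation list as a whole had a median of 0.06. AJUBA, a LIM protein of cell junctions among the YAP target genes, had 2459, 1111 and 1962 counts (log2 ratio 1.08), and SLC7A11, the cystine transporter, had 2475, 1107 and 1692 (log2 ratio 1.10).

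The 20 genes of ERK output went both ways between the knockdowns, 11 higher with ABL1 shRNA and 9 higher with ABL2 shRNA, with MYC at 0.60 and EPHA4 at -0.94 on the log2 scale. A count of 0 past 2-fold in so short a list is near the 3.67% over all genes. HSPA6, an inducible HSP70, was the 1 gene more than 1.5-fold above both single knockdowns in the sample with both shRNAs, with 360 counts against 172 with ABL1 shRNA and 162 with ABL2 shRNA. HSPA6 was also the 1 gene past 2-fold from the weighted mean. ID3, a target of BMP signalling, had 345 counts with both shRNAs against 251 and 208. These genes were chosen after their values were seen. Median log2 ratios per chromosome ran from -0.04 on chromosome 9 to 0.03 on chromosome 14.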
